A study of Mus musculus with 9 samples.

Results

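The miR-99, miR-100 and miR-125 families were examined in small RNA libraries from the subcutaneous fat of mice. They were represented by the 10 mature arms of miR-99a, miR-99b, miR-100, miR-125a and miR-125b, chosen by name from the 860 mature miRNAs listed in every library, and all 10 were found. The study set mice with an endothelial knockout of Ago1 beside wild-type littermates. Argonaute proteins such as AGO1 hold mature miRNAs and bring them to their target mRNAs. Of the 9 mice, each giving 1 library, 3 were labelled WT, 3 Hete KO and 3 Homo KO, read here as no loss, loss of 1 and loss of both endothelial Ago1 alleles. Every mouse was 24 weeks old and had eaten a high fat high sucrose diet since the age of 8 weeks, for 16 weeks in all, so that obesogenic feeding was shared by the controls. The sources used here do not give the Cre driver or the mouse strain. Small RNA values hold no measure of Ago1 mRNA, so the genotypes rest on the labels.

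miR-125 is the mammalian counterpart of lin-4, the small RNA through which miRNAs were first found in worms, and miR-99 and miR-100 belong to an old family related to miR-10. In mammals the 2 families are made together: each of 3 loci carries a miR-99 or miR-100 hairpin, a let-7 hairpin and a miR-125 hairpin, read from the same strand as parts of longer transcripts. miR-99 and miR-100 are known for repressing mTOR and the IGF1 receptor, which stand in the insulin and growth pathway of adipose tissue. miR-125b is known in blood cell formation, in muscle and in the fat lineage, where it has been reported to restrain the formation of beige adipocytes, and miR-125a is also known in macrophages and endothelium. A tissue library holds adipocytes, endothelium, stromal and blood cells together, so that fewer cells of a type and less of a miRNA per cell cannot be told apart.

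The mature sequences are shown because they decide which arms can act on the same targets and which arms can share reads. They come from RefSeq (build GRCm38.p6), in which all 10 arms were matched by name, and capitals mark the seed, bases 2 to 8 from the 5′ end, which pairs with target mRNAs.
miR-99a-5p: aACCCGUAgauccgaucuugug
miR-100-5p: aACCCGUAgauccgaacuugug
miR-99b-5p: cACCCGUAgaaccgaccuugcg
miR-125b-5p: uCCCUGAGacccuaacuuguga
miR-125a-5p: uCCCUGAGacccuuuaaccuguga
miR-99a-3p: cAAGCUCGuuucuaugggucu
miR-99b-3p: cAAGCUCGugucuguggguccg
miR-125a-3p: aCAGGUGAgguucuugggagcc
miR-125b-1-3p: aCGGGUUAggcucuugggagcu
miR-125b-2-3p: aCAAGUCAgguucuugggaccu

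The 10 arms carried 6 distinct seeds. The 5p arms of miR-99a, miR-99b and miR-100 shared ACCCGUA, those of miR-125a and miR-125b shared CCCUGAG, and the 3p arms of miR-99a and miR-99b shared AAGCUCG, while the other 3p arms each had a seed of their own. Counted from the 5′ end of miR-99a-5p, miR-100-5p differed from it by the single substitution U16A, and miR-99b-5p by A1C, U11A, U16C and U21C. Reads of miR-99a-5p and miR-100-5p can therefore be exchanged by 1 sequencing error, and the sources used here do not say how such reads were assigned. miR-125a-5p matched miR-125b-5p over its first 13 bases. miR-125b-5p has the same sequence at both of its hairpins, so its level is a sum over 2 loci, whereas miR-125b-1-3p and miR-125b-2-3p each report 1 locus.

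Among the other miRNAs of the files with a RefSeq sequence, 1 carried a seed of these families: miR-351-5p, of an X-linked cluster, has the miR-125 seed. Its sequence is shown to set it against miR-125b-5p, with which it matched over the first 8 bases only.
miR-351-5p: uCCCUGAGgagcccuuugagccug
The miR-10 family, shown because its seed resembles that of miR-99 without being the same, has ACCCUGU at bases 2 to 8.
miR-10a-5p: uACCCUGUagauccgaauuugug
miR-10b-5p: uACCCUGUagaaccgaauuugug

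Coordinates are those of GENCODE vM21 on GRCm38, the assembly that the submitters' mm10 names. The first locus lies on the plus strand of chromosome 16, with Mir99a at 77598936 to 77599000, Mirlet7c-1 at 77599657 to 77599750 and Mir125b-2 at 77646273 to 77646343, all in introns of the noncoding host gene Mir99ahg. The second lies on the plus strand of chromosome 9, with Mir100 at 41531425 to 41531504, Mirlet7a-2 at 41536716 to 41536811 and Mir125b-1 at 41581926 to 41582002, in introns of the noncoding gene 3110039I08Rik. The third is the tightest and lies on the plus strand of chromosome 17, with Mir99b at 17830188 to 17830257, Mirlet7e at 17830352 to 17830444 and Mir125a at 17830812 to 17830879. It sits inside the protein-coding gene Spaca6, in an intron for Mir99b and Mirlet7e and partly over an annotated exon for Mir125a. Mir125a starts 0.624 kb after Mir99b, while Mir125b-2 starts 47.337 kb after Mir99a and Mir125b-1 starts 50.501 kb after Mir100. The hairpins of Mir99a and Mir125b-1 are shown with both mature arms in capitals, since the levels of the arms are compared further on.
Mir99a: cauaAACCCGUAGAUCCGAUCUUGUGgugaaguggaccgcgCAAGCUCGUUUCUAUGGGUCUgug
Mir125b-1: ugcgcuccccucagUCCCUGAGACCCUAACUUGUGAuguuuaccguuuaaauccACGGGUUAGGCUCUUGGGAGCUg

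Each file gave 1 value per miRNA on a quantile-normalized log2 scale, on which every library has nearly the same set of ranked values. Abundant miRNAs therefore move in steps between shared levels, and the number of reads is unknown, so that no counting interval can be given. From 63 to 152 miRNAs stood at a library's lowest value, with means of 79 in WT, 119 in Hete KO and 120 in Homo KO. Marker miRNAs are given beside the tissue label, with no reference tissue or cutoff, so they do not test it. The means of 4 adipocyte miRNAs lay between 11.18 and 11.72 and those of 4 fibroblast and mural miRNAs between 14.82 and 15.32. The endothelial arms of miR-126a averaged 16.31 to 16.66 in WT and 15.68 to 16.19 in the knockouts. Leukocyte miRNAs (6) averaged 11.56 to 11.66 in WT, 11.29 to 11.82 in Hete KO and 11.93 to 12.19 in Homo KO. The mean of 4 skeletal muscle miRNAs was highest at 14.35 in Hete KO replicate 2, 13.73 in WT replicate 2 and 13.40 in WT replicate 1. It was 11.68 in Homo KO replicate 1, 10.04 in Hete KO replicate 1 and 6.17 to 8.76 in the other libraries. The series was graded, so calling the first 3 libraries richest in muscle miRNA is a chosen cut. A fit without them leaves 1 WT library, replicate 3, so its estimates against WT rest on that mouse. Of the 4 miRNAs, 1 was at the lowest value of a library.

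The 5p arms were abundant and the 3p arms scarce. miR-125b-5p led, with a mean log2 level of 15.93 ± 0.30 (SD, n = 9 libraries), which placed it 17th among the 860 miRNAs. It was followed by miR-99a-5p (15.03 ± 0.20, rank 27), miR-125a-5p (14.94 ± 0.42, rank 29), miR-100-5p (14.80 ± 0.17, rank 32) and miR-99b-5p (13.70 ± 0.27, rank 47). miR-125b-5p was above miR-99a-5p in 9 of 9 libraries, and miR-100-5p above miR-99b-5p in 9 of 9. The order of miR-99a-5p and miR-125a-5p was not fixed, since miR-99a-5p was the higher of the pair in only 4 of 9 libraries and their mean gap of 0.09 was smaller than its SD of 0.37. The same held for miR-125a-5p over miR-100-5p, with a gap of 0.14 ± 0.29 (SD), although 8 of 9 libraries kept that order.

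The 3p arms all lay far below the lowest 5p arm, in every library. Their means were 8.70 ± 0.30 for miR-125b-2-3p, 8.03 ± 0.20 for miR-99b-3p, 7.02 ± 0.31 for miR-125b-1-3p, 6.93 ± 0.28 for miR-125a-3p and 4.07 ± 0.39 for miR-99a-3p (SD, n = 9). miR-125b-1-3p and miR-125a-3p could not be ordered, with a gap of 0.09 ± 0.34 and this order in 5 of 9 libraries. All 10 arms passed the filter on low values, a mean of at least 3.46 and a value above the library's lowest in at least 3 libraries, and miR-99a-3p, rank 453, stood nearest to that limit. The arms are 21 to 24 bases long, so that dividing by length would move a level against another by at most 0.19, and the sources used here do not say whether the authors did so. Together the 10 arms made up 1.74% to 2.95% of the summed abundance of a library after the logarithm was undone.

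**Figure D1:**
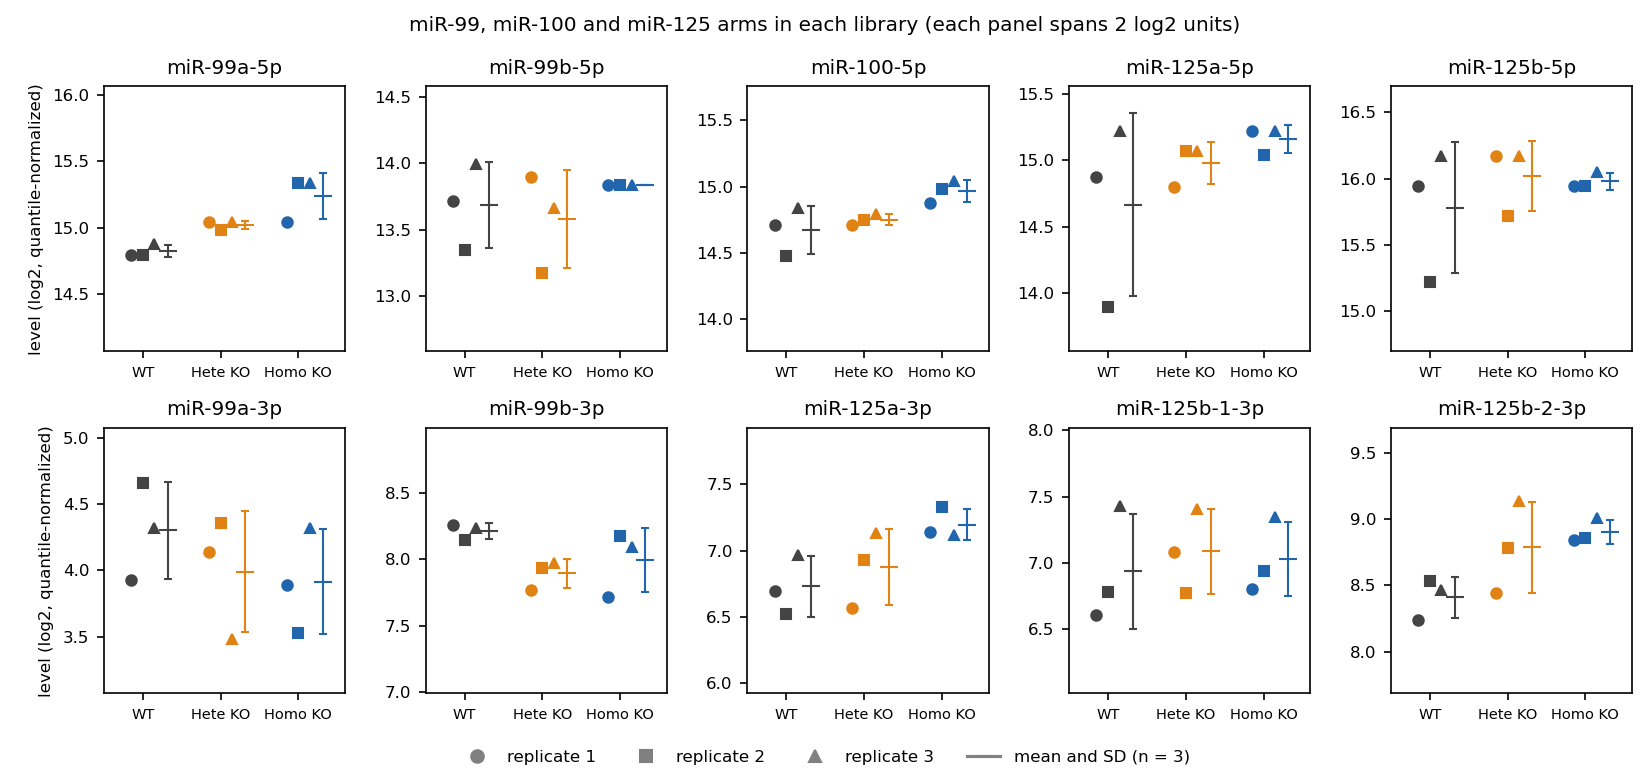
Level of each of the 10 arms in each library on the quantile-normalized log2 scale, by genotype, with the replicate given by the marker and the mean and SD of 3 mice by the bar. miR-99a-5p lies between 14.80 and 14.88 in WT and between 15.04 and 15.34 in Homo KO, and WT replicate 2 holds the lowest miR-125a-5p (13.89) and the lowest miR-125b-5p (15.22).

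Homo KO was compared with WT to ask which miRNAs of fat differ when Ago1 is missing from endothelium. None of the 10 arms passed the test (limma, Benjamini-Hochberg adjusted p under 0.05 over 489 miRNAs tested), where 3.27% of all tested miRNAs did. At an unadjusted p under 0.05 there were 4 arms, all with higher means in Homo KO: miR-99a-5p, miR-100-5p, miR-125a-3p and miR-125b-2-3p. Over all tested miRNAs 23.9% were below that p, 13.5% with a higher mean. The same 4 arms were the ones whose 3 Homo KO mice all lay above the 3 WT mice, a pattern seen in 32.7% of tested miRNAs, and in this direction in 18.4%. Of the 10 arms 8 had a positive log2 fold change, against 55% of all tested miRNAs, and the median was 0.25, against 0.07 over all tested miRNAs. The 5 members of the 5p side were all positive, with a median of 0.29, and 3 of the 5 members of the 3p side were, with a median of 0.09.

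Among the miR-99 and miR-100 guides, which share the seed ACCCGUA, miR-99a-5p came nearest to the threshold. Its log2 level was 14.80, 14.80 and 14.88 in WT replicates 1, 2 and 3, 15.04, 14.98 and 15.04 in Hete KO and 15.04, 15.34 and 15.34 in Homo KO. Every knockout library was above every WT library, and Homo KO replicate 1 was level with 2 of the Hete KO libraries. Several values were identical, at levels that the scale shares between libraries. Their spread is therefore a limited measure of that between mice, and the SE and p of this arm rest on it. For Homo KO against WT the log2 fold change was 0.41 ± 0.11 (SE), with a 95% interval of 0.16 to 0.67 and an adjusted p of 0.0656 (limma), and it stood at rank 34 of the 489 by p. Adding the mean of the muscle miRNAs to the limma fit gave 0.34 (adjusted p = 0.196). The mean of 6 leukocyte miRNAs was also higher in Homo KO than in WT (11.93 to 12.19 against 11.56 to 11.66). Its members differed, with log2 fold changes of 1.26 for miR-142a-5p and 0.71 for miR-150-5p. miR-142a-3p, miR-223-3p and miR-146a-5p were at 0.22, 0.23 and 0.24 with overlapping groups, and miR-155-5p was at -0.07. The part of leukocyte content in this and the other differences was not tested.

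miR-100-5p, the near twin of miR-99a-5p from chromosome 9, was at 14.71, 14.48 and 14.84 in WT, 14.71, 14.75 and 14.80 in Hete KO and 14.88, 14.98 and 15.04 in Homo KO. The Homo KO libraries were above all others, while Hete KO lay within the WT range. Its log2 fold change in Homo KO against WT was 0.29 ± 0.12 (SE, limma, adjusted p = 0.191). By limma it was 0.19 without WT replicate 2, the lowest library (adjusted p = 0.271). Without the 3 libraries richest in muscle miRNA, which leaves 1 WT library, it was 0.13.

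miR-99b-5p, from the Spaca6 locus, had overlapping groups. It was at 13.71, 13.35 and 13.99 in WT, at 13.89, 13.17 and 13.66 in Hete KO and at 13.84 in all 3 Homo KO libraries, an identical value at a level that the scale shares between libraries, so that its SD of 0 is no measure of the spread between mice. The Homo KO value lay inside the WT range, and the log2 fold change was 0.15 ± 0.21 (SE, limma, adjusted p = 0.656). It moved both ways with the setting. It was -0.05 with the muscle covariate and -0.02 without WT replicate 2. Without the 3 libraries richest in muscle miRNA, which leaves 1 WT library, it was -0.15. It was 0.31 without WT replicate 3 and 0.56 with the depth covariate, which counts miRNAs at a library's lowest value (limma, adjusted p = 0.194). That count was 63 to 104 in WT, 101 to 152 in Hete KO and 102 to 141 in Homo KO, so covariate and genotype are poorly told apart. Added up, the 3 guides with this seed made up 1.03% ± 0.10 of the summed abundance in WT, 1.10% ± 0.05 in Hete KO and 1.28% ± 0.09 in Homo KO (SD, n = 3 mice each); this sum is given as a description, with no test.

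The miR-125 guides were more variable in WT. The WT values of miR-125a-5p, by replicate, were 14.88, 13.89 and 15.22, beside 14.80, 15.07 and 15.07 in Hete KO and 15.22, 15.04 and 15.22 in Homo KO. The WT libraries spanned the values of both knockouts, with WT replicate 2 alone far below. The log2 fold change in Homo KO against WT was 0.50 ± 0.29 (SE), the highest estimate among the 10 arms, with a 95% interval from -0.15 to 1.14 and an adjusted p of 0.338 (limma). By limma it was 0.11 without WT replicate 2 (adjusted p = 0.683). Without the 3 libraries richest in muscle miRNA, which leaves 1 WT library, it was -0.06. It was 0.78 without WT replicate 3 (adjusted p = 0.117), and the depth covariate gave 0.85 (adjusted p = 0.211).

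miR-125b-5p, the most abundant member, was at 15.94, 15.22 and 16.17 in WT, 16.17, 15.72 and 16.17 in Hete KO and 15.94, 15.94 and 16.05 in Homo KO. The genotypes overlapped, and the lowest values were those of WT replicate 2 and Hete KO replicate 2. Their muscle miRNA means were 13.73 and 14.35. In WT replicate 1, level with 2 Homo KO libraries for miR-125b-5p, the muscle mean was 13.40. The part of muscle content in these values was not tested. The log2 fold change in Homo KO was 0.20 with a 95% interval from -0.32 to 0.72, and it depended on the setting. It was -0.08 without WT replicate 2, -0.02 with the muscle covariate and 0.10 with sample weights. Without the 3 libraries richest in muscle miRNA, which leaves 1 WT library, it was -0.19. Against these stood 0.40 without WT replicate 3 and 0.67 with the depth covariate (limma, adjusted p = 0.194). The CCCUGAG guides together made up 1.29% ± 0.45 of the summed abundance in WT, 1.49% ± 0.15 in Hete KO and 1.52% ± 0.07 in Homo KO (SD, n = 3).

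The 3p arms are mostly discarded when a guide is loaded. Those of miR-125a and of the chromosome 16 copy of miR-125b lay above WT without overlap in Homo KO, as did 18.4% of all tested miRNAs. In the other 2 comparisons their groups overlapped. miR-125a-3p was at 6.70, 6.52 and 6.97 in WT, 6.57, 6.93 and 7.13 in Hete KO and 7.14, 7.33 and 7.12 in Homo KO, so that Hete KO spread over both other groups. Its log2 fold change in Homo KO was 0.47 ± 0.19 (SE, limma, adjusted p = 0.192). Without the 3 libraries richest in muscle miRNA, which leaves 1 WT library, it was 0.23. miR-125b-2-3p was at 8.24, 8.53 and 8.46 in WT, 8.45, 8.78 and 9.13 in Hete KO and 8.84, 8.86 and 9.01 in Homo KO, and its Homo KO estimate was 0.49 ± 0.18 in log2 units (SE, limma, adjusted p = 0.165). Over all alternatives that estimate ran from 0.41 to 0.58.

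The 3p arm of the other miR-125b copy had no such separation. miR-125b-1-3p was at 6.61, 6.78 and 7.43 in WT, 7.09, 6.77 and 7.41 in Hete KO and 6.81, 6.94 and 7.34 in Homo KO, and the genotypes covered the same range. Its log2 fold change in Homo KO was 0.09 ± 0.26 (SE, limma, adjusted p = 0.822). It ran from -0.40 without the 3 libraries richest in muscle miRNA, which leaves 1 WT library, to 0.46 with the depth covariate. The difference between the 2 loci was not tested.

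The passenger arms of miR-99 had lower means in the knockouts. miR-99b-3p was at 8.26, 8.15 and 8.24 in WT, 7.77, 7.94 and 7.97 in Hete KO and 7.72, 8.17 and 8.09 in Homo KO. Its Hete KO libraries were all below WT, and of the Homo KO libraries replicate 2 lay within the WT range. miR-99a-3p ranged from 3.93 to 4.66 in WT, from 3.48 to 4.35 in Hete KO and from 3.53 to 4.32 in Homo KO, close to the filter's level and with overlap throughout. In Homo KO against WT the log2 fold changes were -0.22 ± 0.16 and -0.39 ± 0.36 (SE, limma, adjusted p = 0.423 and 0.52). The first was -0.083 without Homo KO replicate 1, and the second -0.20 without Homo KO replicate 2, -0.21 without WT replicate 2 and -0.59 without Homo KO replicate 3.

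**Figure D2:**
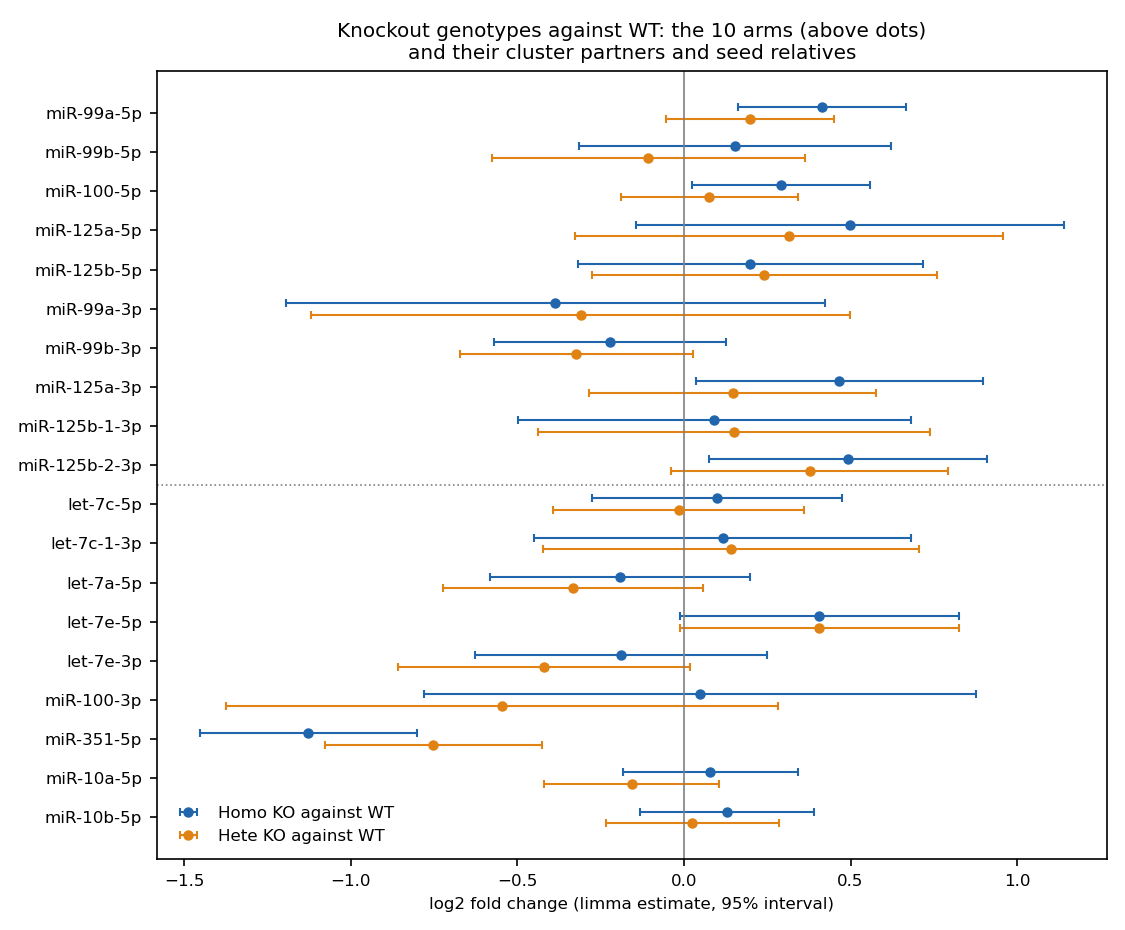
Log2 fold change of each arm in Homo KO and in Hete KO against the same 3 WT mice, as the limma estimate with its 95% interval, with cluster partners, miR-351-5p and the miR-10 family under the dotted line. The Homo KO intervals of miR-99a-5p, miR-100-5p, miR-125a-3p and miR-125b-2-3p exclude 0 before adjustment, and miR-351-5p stands apart on the negative side at -1.13.

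Hete KO was compared with the same WT mice, so the results of the 2 knockout comparisons are not independent. None of the 10 arms passed (limma), where 0.409% of all tested miRNAs did, and none had an unadjusted p under 0.05, where 15.7% did. The groups did not overlap for 2 arms, miR-99a-5p above and miR-99b-3p below WT, against 17.2% of all tested miRNAs in either direction, 8.59% above and 8.59% below. Positive log2 fold changes were found for 7 of 10 arms, against 47.2% over all tested miRNAs, with a median of 0.15 against -0.02. The estimates were 0.20 ± 0.11 for miR-99a-5p, 0.38 ± 0.18 for miR-125b-2-3p, -0.32 ± 0.16 for miR-99b-3p and 0.08 ± 0.12 for miR-100-5p (SE), with limma adjusted p of 0.412, 0.362, 0.355 and 0.813. The estimate for miR-125b-2-3p was 0.20 without Hete KO replicate 3 and 0.63 with sample weights (limma, adjusted p = 0.0577), and that for miR-100-5p was -0.022 without WT replicate 2 and 0.16 without WT replicate 3.

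Homo KO against Hete KO asks about the second allele. No arm passed (limma), as no tested miRNA did (0%), and none of the 10 had an unadjusted p under 0.05, against 8.38% of all tested miRNAs. miR-100-5p was the 1 arm without overlap, at 0.21 ± 0.12 higher in Homo KO (SE, 95% interval -0.05 to 0.48, adjusted p = 0.662), where 12.3% of tested miRNAs had groups without overlap, 9% with Homo KO above. Of the 10 arms 7 had a positive log2 fold change, against 56.6% of all tested miRNAs. miR-99a-5p differed by 0.22 ± 0.11 (95% interval -0.04 to 0.47). Over the 3 genotypes at once, the moderated F-test of limma passed no arm, against 1.23% of all tested miRNAs. At an unadjusted p under 0.05 it gave 1 arm, miR-99a-5p (adjusted p = 0.164), where 18.8% of tested miRNAs were below that level.

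The libraries differed in the guides within genotypes as well as between them. In WT replicate 2 all 5 guides were below their own means, by 0.53 log2 units on average, whereas its 3p arms lay 0.02 below. In Hete KO replicate 2, 4 of 5 guides were below, and the average over all 5 was 0.14 below. In the 3 Homo KO libraries no guide was below its mean, with averages of 0.11, 0.15 and 0.22 above. In WT replicate 1, 3 of 5 were below, and the average over all 5 was 0.07 below. In WT replicate 3 the average was 0.14 above, in the range of Homo KO. The muscle miRNA mean ran nearly opposite to these averages, though not in exact reverse order. It was 14.35 in Hete KO replicate 2, 13.73 in WT replicate 2 and 13.40 in WT replicate 1. Those libraries had the lowest guide averages. In Hete KO replicates 1 and 3, with guide averages of 0.05 and 0.07 above, the muscle mean was 10.04 and 8.76. It was 7.56 in WT replicate 3 and 11.68, 6.17 and 7.40 in Homo KO replicates 1, 2 and 3. Its part in the spread within genotypes was not tested.

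**Figure D3:**
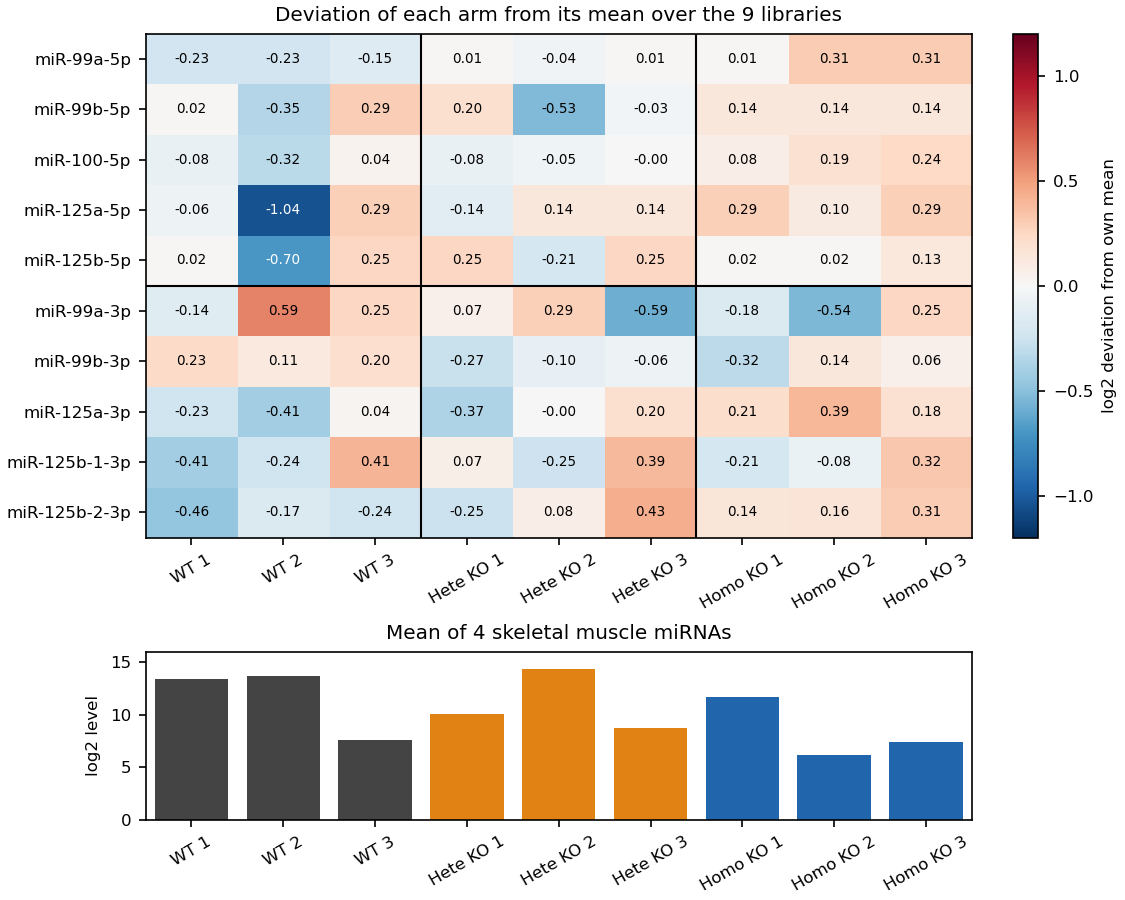
Deviation of each arm from its own mean over the 9 libraries, in log2 units (upper panel, 5p arms above the line), over the mean log2 level of 4 skeletal muscle miRNAs in the same libraries (lower panel). WT replicate 2 holds the lowest deviation, -1.04 for miR-125a-5p, and has a muscle miRNA mean of 13.73.

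The let-7 members of the 3 clusters were compared too, although of their 5p arms only let-7e-5p reports its own cluster alone. let-7c-5p, made also from another hairpin, was at 18.72 ± 0.34 in WT and 18.81 in all 3 Homo KO libraries. let-7a-5p, which has further hairpins too, had a log2 fold change of -0.19 ± 0.17 (SE) in Homo KO. let-7e-5p comes from the Spaca6 locus and was at 16.84, 16.84 and 17.58 in WT, 17.45, 17.45 and 17.58 in Hete KO and 17.45, 17.45 and 17.58 in Homo KO. WT replicates 1 and 2 were thus below all other libraries and WT replicate 3 was level with the highest. Its log2 fold change was 0.41 ± 0.19 in each knockout (SE, limma, adjusted p = 0.215 in Homo KO and 0.331 in Hete KO). let-7e-3p, the other arm of that hairpin, had negative estimates. They were -0.19 ± 0.19 in Homo KO and -0.42 ± 0.19 in Hete KO (SE, limma, adjusted p = 0.559 and 0.336). let-7c-1-3p, from the chromosome 16 hairpin, was at 0.12 ± 0.25 in Homo KO and 0.14 ± 0.25 in Hete KO (SE). Of the 7 listed partner arms of the clusters, 6 passed the filter, the exception being let-7a-2-3p, and none of the 6 passed the test or had an unadjusted p under 0.05 in any comparison. miR-100-3p, at 4.54 ± 0.45 in WT and 4.59 ± 0.37 in Homo KO (SD, n = 3), was among them.

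Correlations over the 9 libraries were computed for 14 pairs of partners and arms, with exact permutation tests adjusted over the 14. miR-99a-5p and miR-100-5p, from different chromosomes but 1 base apart in sequence, had the highest Pearson r, 0.83 (exact permutation p = 0.00516, adjusted p = 0.0361). Their Spearman rho was 0.79 (exact permutation p = 0.0159, adjusted p = 0.112). The part of exchanged reads in this correlation was not tested. Without Homo KO replicates 2 and 3, the libraries farthest from the median of miR-99a-5p, r was 0.59 (exact permutation p = 0.145), so that the test did not pass in the 7 libraries left. Within genotypes, as deviations from the genotype means of all 9, r was 0.54. miR-125a-5p and miR-125a-3p, cut from 1 hairpin, had r = 0.73 (exact permutation p = 0.0047, adjusted p = 0.0361) and rho = 0.64 (exact permutation p = 0.0722, adjusted p = 0.202). Without Hete KO replicate 1 and WT replicate 2, r was 0.47 (exact permutation p = 0.31), and within genotypes it was 0.64. miR-100-5p and miR-125b-5p, of chromosome 9, had r = 0.64 (exact permutation p = 0.0765, adjusted p = 0.178) and rho = 0.28 (exact permutation p = 0.47, adjusted p = 0.598). Within genotypes that r was 0.82, and without Homo KO replicate 3 and WT replicate 2 it was -0.045.

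miR-125a-5p and let-7e-5p, neighbours at the Spaca6 locus, had r = 0.76 (exact permutation p = 0.0286, adjusted p = 0.133) and rho = 0.74 (exact permutation p = 0.0317, adjusted p = 0.144), and r was 0.81 without the 2 farthest libraries. miR-99a-5p and miR-125b-2-3p, on chromosome 16, had r = 0.69 (exact permutation p = 0.0421, adjusted p = 0.147) and rho = 0.70 (exact permutation p = 0.041, adjusted p = 0.144). Within genotypes the latter r was 0.16, and neither pair passed the adjustment. miR-125b-5p had r = 0.61 with miR-125b-1-3p (exact permutation p = 0.0624, adjusted p = 0.175) and rho = 0.83 (exact permutation p = 0.00952, adjusted p = 0.112). With miR-125b-2-3p its r was 0.17 (exact permutation p = 0.685, adjusted p = 0.737) and its rho 0.09 (exact permutation p = 0.838, adjusted p = 0.874). Which locus supplies more of the shared miR-125b-5p was not tested.

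The difference between the arms of a hairpin sets the guide against the partner cut from the same precursor. miR-99a had the widest difference, with the 5p arm 10.96 ± 0.51 log2 units above the 3p arm (SD, n = 9), and miR-99b the narrowest, at 5.66 ± 0.33. For miR-125a it was 8.00 ± 0.29, and miR-125b-5p, the sum of both copies, lay 8.91 ± 0.27 above miR-125b-1-3p and 7.22 ± 0.38 above miR-125b-2-3p.

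The miR-99a difference was 10.87, 10.14 and 10.56 in WT, 10.91, 10.63 and 11.56 in Hete KO and 11.15, 11.81 and 11.02 in Homo KO. Each Homo KO library was above each WT library, by 0.80 on average, which gave a two-sided exact permutation p of 0.1, the smallest possible with 3 mice against 3, and an adjusted p of 1 over 10 such tests. Over the 9 libraries the scarce 3p arm had an SD of 0.39 and the 5p arm one of 0.20. The difference for miR-99b was 0.38 higher in Homo KO than in WT (exact permutation p = 0.3), and the groups overlapped. For miR-125a it was 0.03 higher (p = 1, exact permutation test). The Homo KO values of miR-125b-5p over miR-125b-2-3p were 7.10, 7.08 and 7.04, inside the WT values of 7.70, 6.69 and 7.71, and their mean was 0.29 lower (exact permutation p = 0.4).

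**Figure D4:**
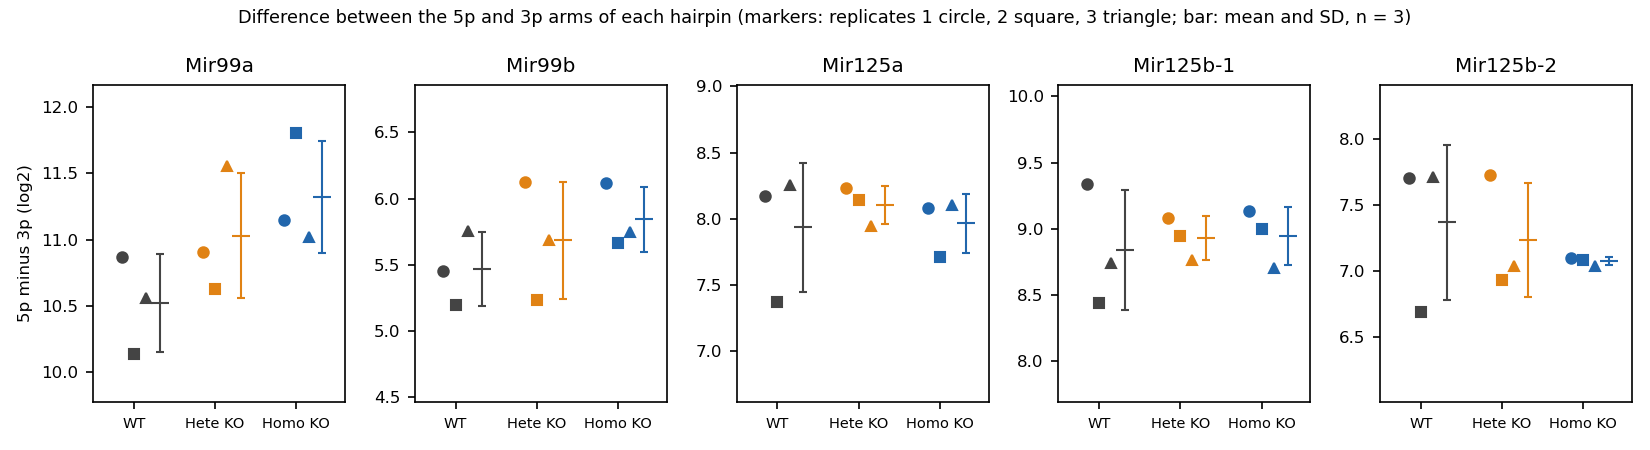
Difference between the 5p and the 3p level of each hairpin in each library, in log2 units, with the mean and SD of 3 mice. For Mir99a the 3 Homo KO libraries (11.02 to 11.81) lie above the 3 WT libraries (10.14 to 10.87), and for the other 4 pairs the genotypes overlap.

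miR-351-5p, which carries the miR-125 seed, had lower values in the knockouts. It was at 9.83, 9.62 and 9.77 in WT, 9.23, 8.84 and 8.89 in Hete KO and 8.53, 8.67 and 8.63 in Homo KO, and no genotype overlapped another. It fell by 1.13 on the log2 scale in Homo KO against WT (limma, adjusted p = 0.00552), and its value in Hete KO was -0.75 ± 0.14 (SE, adjusted p = 0.0548). Against miR-125b-5p it was scarce in every library: the gap was 6.04 ± 0.41 log2 units in WT, 7.03 ± 0.21 in Hete KO and 7.37 ± 0.08 in Homo KO (SD, n = 3). On the back-transformed scale miR-125b-5p was 65.8-fold above it in WT and 165-fold in Homo KO.

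The miR-10 family, which resembles miR-99 at the 5′ end, was more abundant than it. miR-10b-5p was at 16.64, 16.64 and 16.84 in WT and 16.84 in all 3 Homo KO libraries, and miR-10a-5p at 16.52, 16.52 and 16.64 in WT and 16.64 in all 3. Their log2 fold changes in Homo KO were 0.13 ± 0.12 and 0.08 ± 0.12 (SE, limma, adjusted p = 0.498 and 0.69). Both arms sit at levels shared by several libraries.

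Other miRNAs followed the guides across the 9 libraries, named here by the highest Pearson r among tested miRNAs outside the 10 arms and given with no test, since they are the extremes of many. For miR-99a-5p these were miR-3964 (0.92), let-7g-5p (0.92) and miR-339-5p (0.88), and for miR-100-5p miR-191-5p (0.91), miR-28a-5p (0.91) and miR-96-5p (0.90). For miR-99b-5p they were let-7c-5p (0.91), miR-16-5p (0.91) and miR-574-3p (0.90), and for miR-125a-5p miR-92a-3p (0.93), miR-365-2-5p (0.92) and miR-193a-5p (0.92). let-7c-5p also led for miR-125b-5p (0.91), before miR-574-5p (0.91) and miR-340-3p (0.86). All these profiles share the 9 libraries, their depth and their muscle content.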

How the data were processed

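Small RNA was sequenced from the subcutaneous adipose tissue of 9 mice. The labels' protocols name Trizol for RNA extraction and the TruSeq small RNA preparation of Illumina for libraries, and the submitters' processing notes name mm10. The sources used here do not give an aligner, counter or normalization. The deposited values were taken as quantile-normalized log2 values, judged from the files: they run from 0 to 19.99, with an equal maximum in every library, although their names say FPKM.

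Genotypes came from the labels. The members and lists were chosen with earlier results of these data known. Tests covered the 489 of 860 miRNAs with a mean of 3.46 or more, log2 of (10 + 1), that exceeded the lowest value of the library in 3 or more libraries. The fit used limma 3.58.1 (R 4.3.3; eBayes with a variance trend; all 9 libraries; no covariate), with Benjamini-Hochberg adjustment over the 489 at 0.05. Log2 fold changes carry the 1 added before the logarithm. Arm differences and correlations used two-sided exact permutation tests. The named miRNAs were the 10 arms, their cluster partners, miRNAs with their seeds, the miR-10 family, and for each guide the 3 tested miRNAs with the highest Pearson r. The steps were tested on simulated data. Marker lists of endothelium, skeletal muscle, leukocytes, adipocytes, fibroblast and mural cells are given as means. Those of epithelium (5.97 to 9.27), erythroid cells (9.67 to 11.55), neural cells (6.61 to 7.91) and liver (7.48 to 14.98) are given here as ranges of the list mean over the 9 libraries. Alternatives were another pseudocount, filters, scalings, no variance trend, sample weights, a replicate block, covariates for muscle miRNA and depth, only the groups compared, and libraries left out.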

Additional observations from a re-analysis of the deposited data

How the results depend on the processing

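No arm passed the test in Hete KO against WT or in Homo KO against Hete KO under any alternative run. In Homo KO against WT, 1 arm passed with the stricter filter (miR-99a-5p, 0.41, adjusted p = 0.0475) and 2 with sample weights (miR-99a-5p, 0.45, adjusted p = 0.0131, and miR-125b-2-3p, 0.58, adjusted p = 0.0367), and the F-test then passed 1. The adjusted p of miR-99a-5p ran from 0.0131 to 0.284 over all alternatives, and its fold change from 0.34 to 0.51. The count over all miRNAs in Homo KO against WT was 16, and it was 9 with no filter, 25 with the stricter filter, 74 with sample weights, 25 with the replicate block, 3 with the muscle covariate, 0 with the depth covariate and 8 without the 3 libraries richest in muscle miRNA, which leaves 1 WT library, assumed to vary like the others. Leaving out 1 library gave 2 to 25. In Hete KO against WT it was 2, and 10 with the stricter filter, 1 without the variance trend, 34 with sample weights, 15 with the replicate block, 0 with the depth covariate, 1 with only the groups compared, 10 without those 3 libraries and 1 to 24 with 1 library left out. Homo KO against Hete KO gave 4 without those 3 libraries. The replicate block changed no call of an arm. Same-numbered libraries had correlated deviations over 0.1 in 5 of 9 pairs, and differently numbered ones in 6 of 18. In 8 of 18 choices, each among 3 libraries, a library matched its own number best. Neither figure decides whether the numbers pair the mice, and the main fit used no pairs. The cause of these changes was not tested.

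Signs changed for several arms, among them miR-125a-5p, whose estimate was the highest. With the muscle covariate, Homo KO against WT gave -0.051 for miR-99b-5p, -0.022 for miR-125b-5p and -0.21 for miR-125b-1-3p. Without the 3 libraries richest in muscle miRNA, which leaves 1 WT library, it gave -0.15, -0.19 and -0.40 for these and -0.061 for miR-125a-5p. In that setting Hete KO against WT gave -0.081 for miR-100-5p, -0.29 for miR-125a-5p, -0.12 for miR-125a-3p and -0.18 for miR-125b-1-3p. With the depth covariate, which counts miRNAs at a library's lowest value, Homo KO against WT gave 0.56 for miR-99b-5p, 0.67 for miR-125b-5p and 0.85 for miR-125a-5p. Hete KO against WT gave 0.30, 0.70 and 0.66. That count averaged 79 in WT, 119 in Hete KO and 120 in Homo KO, so covariate and genotype are poorly told apart. Between the knockouts, miR-99a-3p was at 0.00385 with quantile normalization repeated, 0.23 with sample weights, 0.043 with the muscle covariate and 0.11 without the 3 libraries, and miR-125b-2-3p at -0.052 with sample weights. Leaving out 1 library, Homo KO against WT ranged from -0.016 to 0.31 for miR-99b-5p, -0.078 to 0.40 for miR-125b-5p and -0.075 to 0.34 for miR-125b-1-3p. Hete KO against WT ranged from -0.022 to 0.16 for miR-100-5p, -0.069 to 0.60 for miR-125a-5p, -0.037 to 0.44 for miR-125b-5p, -0.28 to 0.096 for miR-99b-5p and -0.016 to 0.40 for miR-125b-1-3p. Homo KO against Hete KO ranged from -0.19 to 0.035 for miR-125b-5p, -0.056 to 0.29 for miR-125b-2-3p, -0.22 to 0.10 for miR-125b-1-3p and -0.33 to 0.12 for miR-99a-3p.

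Leaving out 1 library, the arm difference ranged in Homo KO against WT from -0.25 to 0.19 for Mir125a and -0.091 to 0.36 for Mir125b-1, and in Hete KO against WT from -0.11 to 0.33 for Mir125a, -0.11 to 0.34 for Mir125b-1, -0.47 to 0.034 for Mir125b-2 and -0.0043 to 0.44 for Mir99b. Without the 2 libraries farthest from the median, the correlation was -0.0084 for the arms of miR-99b, -0.32 for miR-125b-5p with miR-125b-2-3p, -0.045 for miR-100-5p with miR-125b-5p, 0.47 for the arms of miR-125a and 0.59 for miR-99a-5p with miR-100-5p. As deviations from the genotype means these were -0.070 for the arms of miR-99b, -0.14 for miR-125b-5p with miR-125b-2-3p, 0.82 for miR-100-5p with miR-125b-5p, 0.64 for the arms of miR-125a and 0.54 for miR-99a-5p with miR-100-5p. The number of reads is unknown, and the covariate above is the only measure of depth used.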
